A study of Homo sapiens with 20 samples.

Results

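MM1.S cells, a human multiple myeloma line, were compared after 6 h in dCBP-30 (10 nM) and after 6 h in DMSO, the vehicle, with emphasis on genes of growth and biosynthesis. dCBP-30 is a degrader of CBP and p300, the paralogous acetyltransferases encoded by CREBBP and EP300 that act as coactivators at enhancers, and it acts through the ubiquitin ligase substrate receptor cereblon, encoded by CRBN. The comparison used 6 samples, 3 dCBP-30 and 3 DMSO at 6 h, of 20 in the series. The series also held 3 samples of each treatment at 2 h and at 24 h, and 2 samples of the same line without 4-thiouridine (4sU). All cells were of 1 line, with the genotype given as WT, and all samples of the 6 treatment groups carried 4sU for the last 1 h before harvest. Sources used here do not say whether the 3 samples of a group came from separate cultures, so the spread behind the p-values may be technical. In the tests of single genes, this spread was estimated over all labelled samples, those at 2 h and 24 h included. From 12 gene lists of growth and biosynthesis, 433 genes were taken of 19593 in all, and 414 of the 433 had enough converted reads to test. The lists were chosen with earlier results of these data known, so their shares of called genes are no independent test.

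SLAM-seq marks RNA made during the labelling pulse. Incorporated 4sU is alkylated and read as a T-to-C conversion, so a read with a conversion (a T>C read) counts newly made RNA, and reads without one count mostly RNA made before the pulse. Cells that prepare to divide must build ribosomes, which calls for ribosomal RNA from RNA polymerase I, ribosomal proteins and a large set of nucleolar assembly factors, together with nucleotides, polyamines, amino acids and the transporters that bring them in. In many tumour cells, myeloma among them, these genes are targets of MYC, which binds with its partner MAX to the E-box CACGTG. MYC is itself driven by strong enhancers in myeloma. A gene class whose new RNA is level at 2 h and lower at 6 h is called here a later layer, and the test of it is the difference of the 6 h and the 2 h changes in 1 model.

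The 6 h samples held 14316263 to 16558852 reads on genes. T>C reads were 4.94%, 4.71% and 5.28% of the reads in the dCBP-30 samples and 6.59%, 6.24% and 6.32% in the DMSO samples, against 0.794% and 0.809% without 4sU. The dCBP-30 mean of 4.98% ± 0.285 (SD, n = 3) lay below the DMSO mean of 6.38% ± 0.182 (SD, n = 3) with no overlap, at a two-sided exact permutation p of 0.1, the smallest that 3 against 3 can give. The ratio of summed conversions to summed T>C reads was 2.24 ± 0.03 (SD, n = 3) in dCBP-30 and 2.17 ± 0.041 in DMSO. Without 4sU it was 0.929 and 0.919. Since every T>C read holds a conversion, these low values mean that the ratio is not the number carried by each. The 10 plasma cell markers summed to 6266 to 6443 reads per 1000000 (RPM) of the library in DMSO and 2242 to 2374 in dCBP-30, while the 6 B cell markers together reached at most 0.486 in any sample, with 3 of the 6 at 0 reads in all DMSO samples and 5 at 0 in all dCBP-30 samples. T cell, myeloid and stromal markers summed to 0.0618 to 7.21 RPM over the 6 samples. The stromal sum was 3.34 to 5.73 in dCBP-30 and 0.423 to 1.22 in DMSO, and its part in the results was not tested. RPM of genes are scaled by each library's total reads and their TMM factor. A gene is called lower or higher at an adjusted p under 0.05 and more than a 2-fold change, with p from the quasi-likelihood test of edgeR and adjusted by Benjamini-Hochberg across every gene in the test.

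The new RNA of MYC was already low at 2 h and stayed low at 6 h. It had 145, 117 and 119 RPM of T>C reads in the DMSO samples at 6 h and 0.479, 1.28 and 2.33 in the dCBP-30 samples. No dCBP-30 sample came near a DMSO one. The log2 fold change was -6.29 at 2 h and -6.54 ± 0.50 (SE) at 6 h, adjusted p = 1.5e-07 for the latter, and the 2 did not differ past the threshold (difference -0.26, adjusted p = 0.9). In DMSO, 90.8% of MYC reads carried a conversion, and the log2 fold change of its total reads was -6.53. MAX, the obligate partner of MYC, was not called (-0.32, adjusted p = 0.57). CREBBP, EP300 and CRBN were not called in T>C reads either, with log2 fold changes of 0.52, 0.12 and 0.13.

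Genes of growth and biosynthesis as a whole were level at 2 h and lower at 6 h in newly made RNA. At 6 h, 211 of the 414 tested members (51.0%) were called lower and 2 were called higher, where 17.1% of all 10083 genes tested were called lower and 2.36% higher. The median log2 fold change of the members was -1.06 and that of all genes -0.27. At 2 h, 6 of the same 414 were called lower and 3 higher, against 7.14% of all genes lower, with a median of 0.00. The difference of the 2 changes was called lower for 165 members and higher for 0, against 6.63% of all genes lower and 0.615% higher by edgeR's test. At an unadjusted p under 0.05 the difference was lower for 237 members and higher for 2. Of the 211 members lower at 6 h, 206 had not been called lower at 2 h, and 153 were also called lower in the difference. This count depended on the scaling: the difference was called lower for 107 members without TMM, 83 with each library's own T>C scaling, 80 with DESeq2 on T>C size factors and 102 with reads summed over transcripts. Members lower both at 6 h and in the difference then numbered 85, 71, 70 and 96. In 271 of the 414, every dCBP-30 sample lay below every DMSO sample at 6 h, against 28.2% of all genes tested.

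Genes called lower at both 2 h and 6 h held few growth members. They numbered 565 over all genes tested, and 5 of them (0.885%) were members of the growth lists, which held 4.11% of the genes tested. Genes lower at 6 h and in the difference but not at 2 h numbered 502. Of these, 172 were in any list used here and most were in none. Members of the growth lists were 152 of the 502 (30.3%). With each library's own T>C scaling these were 71 of 243 (29.2%), and without TMM 85 of 299 (28.4%). Because the lists were chosen with earlier results of these data known, such shares describe them and do not test them. The 5 early members were EIF5A, HSPE1, SLC1A4, SLC38A1 and SLC7A6. EIF5A, the hypusine-bearing elongation factor, had a log2 fold change of -1.14 at 2 h and -2.33 at 6 h. HSPE1, the mitochondrial co-chaperonin, was at -1.74 and -1.88. The other three encode amino acid transporters, and SLC1A4, for one, was at -1.99 and -2.36. SLC38A2, a glutamine transporter of the same family as SLC38A1, was called lower at 2 h and not at 6 h (-0.87).

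**Figure D1:**
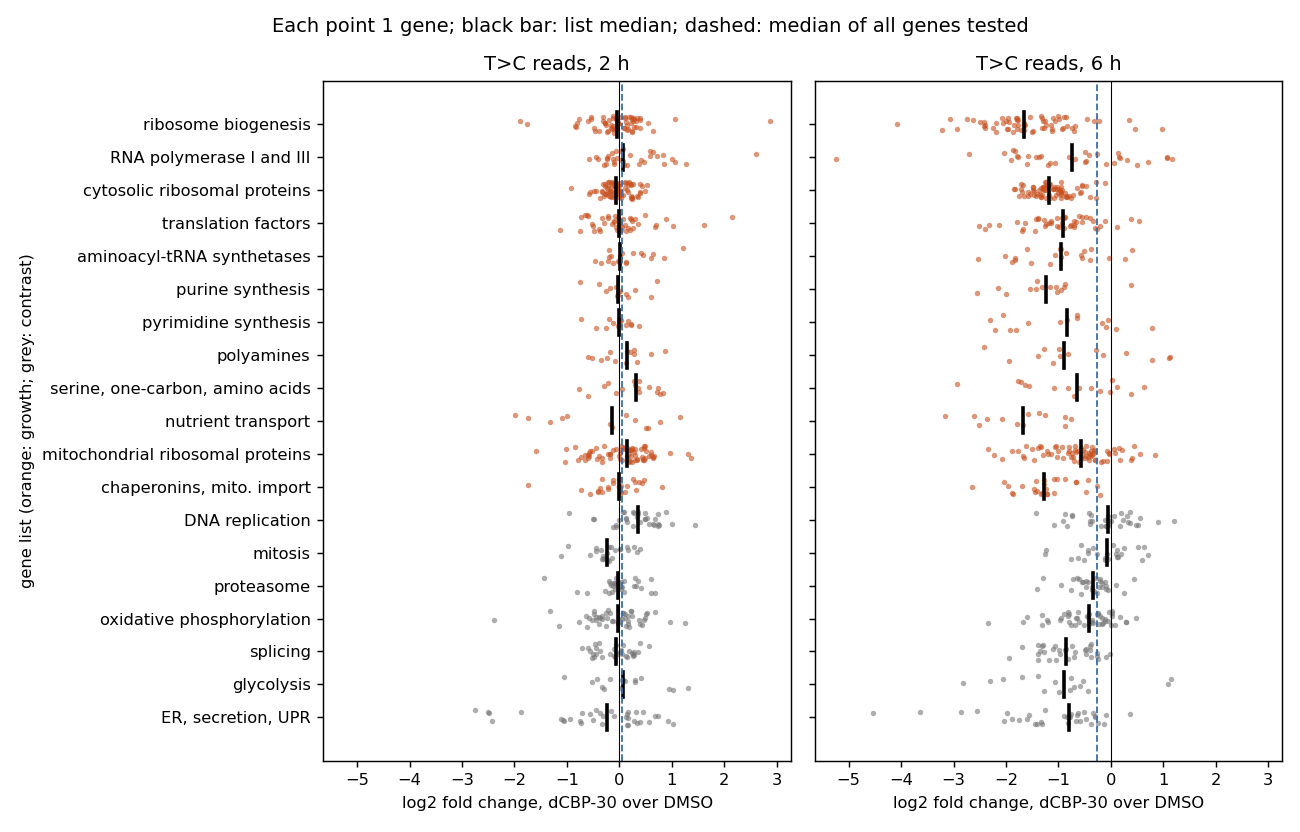
Log2 fold change of T>C reads, dCBP-30 over DMSO, for each tested gene of the 12 growth lists (orange) and 7 contrast lists (grey) at 2 h (left) and 6 h (right). Black bars are list medians and the dashed line is the median of all genes tested. Medians of the growth lists lie near 0 at 2 h and between -1.67 and -0.57 at 6 h, and the DNA replication median is -0.05 at 6 h (0.25 without TMM).

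The level of the whole depends on the scaling. Without the TMM factor the median of all genes moved from -0.27 to 0.04, and list medians are therefore also given as distances from the median of all genes. A scaling factor shifts every gene of a library alike, so these distances stay nearly the same by construction. Their stability is no test of the result. For ribosome biogenesis the distance was -1.38 with TMM, -1.39 without it and -1.38 with the T>C reads scaled by their own sum. For cytosolic ribosomal proteins it was -0.90 under each of these 3. The count of members called lower was 135 without TMM and also 135 with each library's own T>C scaling. By list, the calls with each library's own T>C scaling and with the main one were 38 against 49 for ribosome biogenesis, and 8 against 9 for nutrient transporters. Counts moved by over 1.5 times for cytosolic ribosomal proteins (23 against 50), translation factors (11 against 18), chaperonins and import (11 against 19) and mitochondrial ribosomal proteins (11 against 19). They did so too for purine synthesis (5 against 9), serine and one-carbon genes (3 against 6), splicing (7 against 13) and glycolysis (4 against 7), and for mitosis (0 against 2), the proteasome (1 against 2), the respiratory chain (4 against 7), the mTORC1 pathway (3 against 5) and the MYC network (2 against 5). The median of the cytosolic ribosomal proteins was -1.17 with TMM and -0.86 with the own T>C scaling, on either side of the 2-fold limit of -1. Over all genes tested, 1184 were called lower with the own T>C scaling against 1720 with the main one.

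Promoter sequence is shown for members of different roles that hold the E-box, the motif named above, 5 of them called lower in T>C reads at 6 h and 1 not. Of the 433 members, 363 had a promoter in the RefSeq table (build GRCh38.p14, 250 bases before to 50 after the start), and 69 of the 363 (19.0%) held CACGTG, which reads the same on both strands. It was in 7.43% of all 27305 promoters and in 10.7% of the 8211 belonging to genes tested. Some lists outside growth held it about as often or more. Counts were 6 of 24 promoters for the mTORC1 pathway, 3 of 11 for the MYC network and 7 of 33 for endoplasmic reticulum secretion. They were 6 of 29 for splicing and 4 of 21 for mitosis. The E-box was rarer for glycolysis (3 of 17), sterols and fatty acids (3 of 21) and DNA replication (3 of 30). So it was for the respiratory chain (3 of 41), the proteasome (1 of 26) and myeloma identity (0 of 10). Ribosome biogenesis genes had the E-box most often of the 12 growth lists, in 24 of 56 promoters (42.9%), while cytosolic ribosomal protein genes had it in 3 of 63 (4.76%). Members called lower at 6 h held it in 22.8% of promoters and members tested and not called lower in 14.5%. Over all genes, it was in 14.9% of promoters of those called lower at 6 h. For all genes called lower in the difference between 6 h and 2 h the share was 19.1%. The contrast between members was not tested, and the mix of lists was not separated from it. Stretches of 80 bases are given 5′ to 3′ on the strand of the gene, with the E-box in capitals, for an enzyme of polyamine synthesis (SRM), the first enzyme of purine synthesis (PPAT), an amino acid transporter (SLC7A5), a one-carbon enzyme (MTHFD1L), a chaperonin (HSPD1) and, as the member not called lower, an enzyme of pyrimidine synthesis (DHODH). EIF4E, also not called, holds the E-box 2 times in its promoter.
SRM, chr1:11060175-11060254, minus strand: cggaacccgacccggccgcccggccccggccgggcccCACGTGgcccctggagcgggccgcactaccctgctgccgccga
PPAT, chr4:56435755-56435834, minus strand: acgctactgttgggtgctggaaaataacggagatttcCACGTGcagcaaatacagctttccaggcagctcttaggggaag
SLC7A5, chr16:87869595-87869674, minus strand: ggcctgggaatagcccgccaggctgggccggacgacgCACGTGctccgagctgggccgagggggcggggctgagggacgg
MTHFD1L, chr6:150866295-150866374, plus strand: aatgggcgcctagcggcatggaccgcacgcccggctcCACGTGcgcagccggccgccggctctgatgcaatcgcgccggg
HSPD1, chr2:197500320-197500399, minus strand: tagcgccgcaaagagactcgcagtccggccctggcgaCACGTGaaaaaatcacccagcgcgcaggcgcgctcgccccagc
DHODH, chr16:72008548-72008627, plus strand: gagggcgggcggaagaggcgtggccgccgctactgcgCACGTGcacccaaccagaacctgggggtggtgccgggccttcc
The HSPD1 stretch is also the promoter of HSPE1, which is transcribed the other way from the same interval. A match is a description of the letters and was not tested as a binding site.

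Ribosome biogenesis genes changed most broadly of the larger lists. These 66 genes encode nucleolar factors that process ribosomal RNA and assemble the subunits. Of 65 tested, 49 were called lower in T>C reads at 6 h and 0 higher, with a median log2 fold change of -1.66, and 0 were called at 2 h in either direction by edgeR, where 4 were lower and 1 higher at an unadjusted p under 0.05. The difference between 6 h and 2 h was called for 40 of them.

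NOP16, a nucleolar factor of the large subunit, was the lowest of the list. It had 13.4, 20.6 and 13.1 RPM of T>C reads in DMSO and 1.02, 0.777 and 0.981 in dCBP-30. The groups were far apart, with a log2 fold change of -4.08 ± 0.31 (SE, adjusted p = 9.5e-17) at 6 h, and the change at 2 h had been -0.54 (adjusted p = 0.2). The reads were counted in the gene's 3′ UTR on chromosome 5, 176383946 to 176384233 (hg38). NOLC1, a chaperone of nucleolar ribonucleoproteins, had 24.5, 33.3 and 32.8 RPM of T>C reads in DMSO and 7.25, 5.55 and 4.05 in dCBP-30. Its log2 fold change was -2.42 ± 0.22 (SE, adjusted p = 6.5e-14). NCL, which encodes nucleolin, an abundant protein of the dense nucleolus, was at 17.7, 32.2 and 29.2 in DMSO and 7.01, 7.38 and 4.47 in dCBP-30. The spread within DMSO was wide for NCL, yet the highest dCBP-30 sample was below the lowest DMSO sample (log2 fold change -2.07, adjusted p = 3.8e-12). RRS1, which is needed to place the 5S ribonucleoprotein in the large subunit, was at -3.07 ± 0.27 (SE, adjusted p = 1.6e-14).

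Not every nucleolar gene moved as far. The box C/D particle members FBL, the methyltransferase, and NOP56, a scaffold, were at -1.32 and -1.48. NPM1, a nucleolar chaperone and one of the most abundant proteins of the compartment, was at -1.30 (adjusted p = 8.3e-09). FTSJ3, a processing factor, was the highest of those with enough reads to be named, at 0.34 (adjusted p = 0.67), with 1.35, 2.28 and 1.97 RPM of T>C reads in DMSO and 2.27, 2.55 and 2.27 in dCBP-30. NPM1 went to -0.98 with each library's own T>C scaling, where it no longer passed the 2-fold limit, and FBL fell just short of it there too.

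RNA polymerase I and III genes were split. Of 34 tested, 13 were called lower and 1 higher, with a median of -0.74. Those lower included the 2 largest subunits of RNA polymerase I, which makes the ribosomal RNA precursor. POLR1A was at -2.71 ± 0.51 (SE, adjusted p = 5.1e-05). POLR1B had 9.63, 8.04 and 10.3 RPM of T>C reads in DMSO and 2.10, 3.50 and 2.51 in dCBP-30, and a log2 fold change of -1.78 (adjusted p = 7.5e-06). UBTF, the factor that holds ribosomal DNA open, was at -2.04 (adjusted p = 3.2e-08). GTF3C1, the largest subunit of the polymerase III factor TFIIIC, was the one called higher. It had 1.91, 1.68 and 2.85 RPM of T>C reads in DMSO and 3.41, 5.66 and 5.39 in dCBP-30, a log2 fold change of 1.17 (adjusted p = 0.02), and lost the call when any of 4 single samples was left out (values 1.02 to 1.09). RRN3, the initiation factor of polymerase I, had too few reads to test.

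Cytosolic ribosomal protein genes shifted together, by a smaller amount before any correction for background. Of 76 tested, 50 were called lower at 6 h and 0 higher, and all 76 had a log2 fold change below 0 (73 of 76 without TMM or with the own T>C scaling), from -1.84 for RPS21 to -0.11 for RPL7. The median was -1.17, with quartiles of -1.36 and -0.95. RPL3, a core protein of the large subunit near the peptidyl transferase centre, had 30.9, 35.1 and 35.8 RPM of T>C reads in DMSO and 12.3, 8.43 and 10.8 in dCBP-30. The log2 fold change was -1.69 ± 0.19 (SE, adjusted p = 9.1e-11) at 6 h and 0.39 at 2 h. RPS21, of the small subunit, was at 20.03, 29.0 and 25.5 in DMSO and 7.96, 7.55 and 5.21 in dCBP-30. RPS6, the small subunit protein phosphorylated downstream of mTORC1, was at -1.29 (adjusted p = 8.3e-05) and fell short of 2-fold, at -0.97, without the TMM factor. Ribosomal protein genes have many processed pseudogenes, so the split of their reads in the authors' counting is uncertain. T>C reads were on average 2.20% of this list's reads in DMSO and 1.40% in dCBP-30. Samples without 4sU gave 0.794% and 0.809% over all genes. For ribosome biogenesis the shares were 8.31% and 4.73%, so the sizes of the 2 shifts are not directly comparable.

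Translation factors and the enzymes that charge transfer RNA were lower in part. Of 46 translation factor genes tested, 18 were called lower and 0 higher (median -0.92). EIF4A1, the helicase of the cap-binding complex, had 57.5, 71.1 and 66.5 RPM of T>C reads in DMSO and 11.3, 12.5 and 13.0 in dCBP-30. Its samples were tight within each group, and the log2 fold change was -2.41 ± 0.17 (SE, adjusted p = 1.9e-18), where 2 h had shown 0.30. The EIF4A1 3′ UTR, on chromosome 17 from 7578369 to 7578990 (hg38), overlaps the readthrough gene SENP3-EIF4A1 on the same strand, so the 2 cannot be told apart. ABCE1, the ribosome recycling factor, was at -2.52 (adjusted p = 7.7e-06). EIF4E, which binds the cap, was not called (-0.66, adjusted p = 0.42), although without dCBP-30 replicate 1 it was called lower at -1.71. EIF4EBP2, an inhibitor of EIF4E, was at 0.53 (adjusted p = 0.21), after a call of 1.02 at 2 h. Of 21 genes of aminoacyl-tRNA synthetases and their scaffold, 9 were called lower (median -0.96). The scaffold AIMP2 was lowest, at -2.53 (adjusted p = 0.00012), and its 3′ UTR overlaps that of EIF2AK1 on the opposite strand. RARS1, the arginyl-tRNA synthetase, was highest at 0.40 and was not called.

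**Figure D2:**
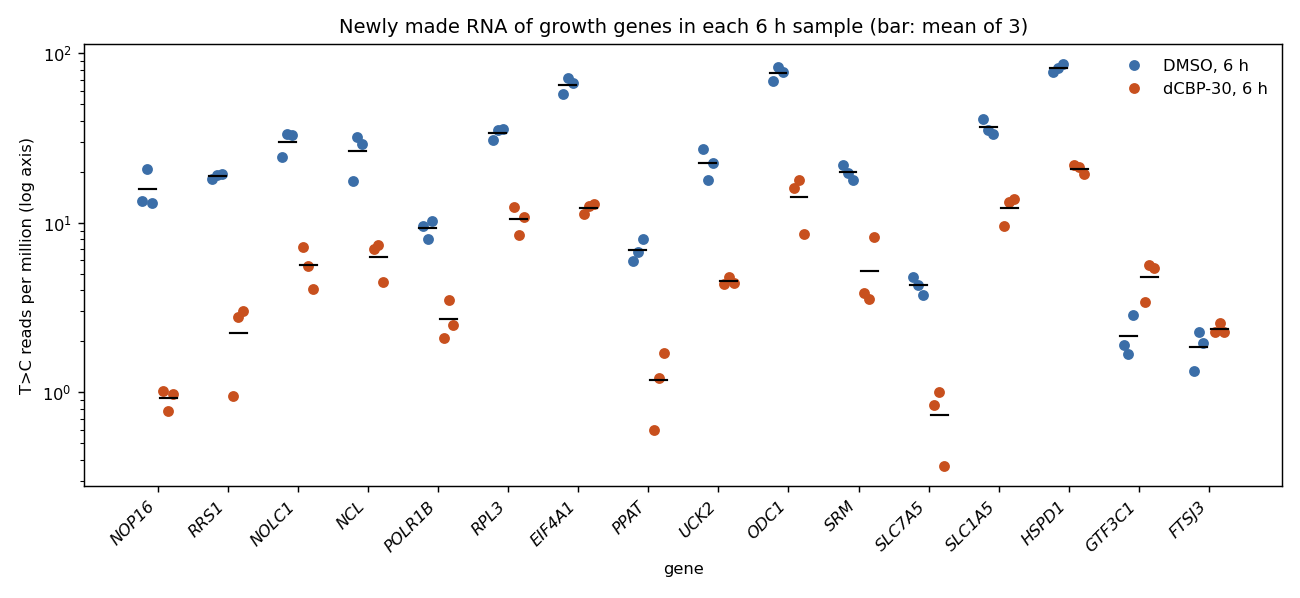
RPM of T>C reads (log axis) of 16 genes in the 3 DMSO samples (blue) and the 3 dCBP-30 samples (orange) at 6 h, with the mean of 3 as a black bar. NOP16 is near 15.7 in DMSO and 0.925 in dCBP-30, and GTF3C1 is higher in dCBP-30. The groups overlap for none of the 14 genes from NOP16 to HSPD1, which were shown as genes called lower. Over all genes tested, every dCBP-30 sample lay below every DMSO sample in 28.2%.

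Nucleotide synthesis genes were lower in part, in both branches. Of 14 purine genes tested, 9 were called lower and 0 higher, with a median of -1.24, and 5 with each library's own T>C scaling. PPAT, which commits phosphoribosyl pyrophosphate to purines and whose E-box is printed above, had 5.94, 6.77 and 8.003 RPM of T>C reads in DMSO and 0.599, 1.22 and 1.72 in dCBP-30. Its log2 fold change was -2.54 ± 0.40 (SE, adjusted p = 5.9e-07), against 0.13 at 2 h. PAICS, which carries out later steps and shares a divergent promoter with PPAT, was at -1.43 (adjusted p = 1.1e-08). IMPDH2, the enzyme that turns IMP towards guanine nucleotides, was at -1.05 (adjusted p = 0.035) and lost its call under 5 of 6 single-sample omissions, with values from -0.81 to -1.09 there. Its 3′ UTR overlaps another gene model on the same strand. GMPS, the next enzyme on that path, was not called, at 0.39 (adjusted p = 0.41), with 4.88, 5.83 and 4.41 in DMSO and 6.53, 6.77 and 6.50 in dCBP-30.

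Among 15 pyrimidine genes, 6 were called lower and 0 higher (median -0.83), and 9 did not pass. UCK2, a salvage kinase for uridine and cytidine, was at 27.1, 17.8 and 22.6 RPM of T>C reads in DMSO and 4.37, 4.77 and 4.41 in dCBP-30. It was the lowest of the list, with a log2 fold change of -2.31 ± 0.25 (SE, adjusted p = 2.5e-11). CAD, which carries out the first steps of pyrimidine synthesis in 1 protein, was at -1.92 (adjusted p = 5.4e-05). DHODH, the mitochondrial step, whose E-box is printed above, was at -0.83 and was not called (adjusted p = 0.33), and UCK1, the paralogue of UCK2, was at 0.78 (adjusted p = 0.16). UCK2 also phosphorylates uridine analogues such as 4sU, and its part in the lower T>C share of the dCBP-30 samples was not tested.

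The polyamine list was lower at 4 genes of synthesis and higher at 1 regulator. Of 14 tested, ODC1, SRM, AMD1 and MAT2A, which makes S-adenosylmethionine, were called lower (list median -0.89) and OAZ2 was called higher. ODC1, the first and most regulated enzyme of the path, had 68.4, 82.6 and 77.2 RPM of T>C reads in DMSO and 16.0, 17.9 and 8.58 in dCBP-30. Its log2 fold change was -2.42 ± 0.22 (SE, adjusted p = 4.3e-12), against -0.18 at 2 h. SRM, the spermidine synthase, was at 21.9, 19.8 and 17.97 in DMSO and 3.83, 3.55 and 8.21 in dCBP-30 (log2 fold change -1.94, adjusted p = 4.9e-09). Replicate 3 was the high sample of SRM in dCBP-30 and the low one of ODC1. AMD1, which makes the aminopropyl donor, was at -1.10 (adjusted p = 5.9e-06) and at -0.78 without TMM. OAZ2, an antizyme that targets ODC1 for breakdown, was at 1.12 (adjusted p = 0.015), from 3.04, 2.55 and 2.58 in DMSO and 4.43, 5.77 and 7.54 in dCBP-30, and lost the call on leaving out any of 3 single samples (values 0.91 to 1.08). AZIN1, which counters antizymes, was at -0.97 (adjusted p = 0.038), short of 2-fold.

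Serine, one-carbon and amino acid synthesis changed at some steps. Of 16 tested, 6 were called lower and 0 higher (median -0.65). MTHFD1L, the mitochondrial formate-producing enzyme, was at -2.93 ± 0.81 (SE, adjusted p = 0.004), from 1.203, 1.81 and 1.56 RPM of T>C reads in DMSO and 0.18, 0.333 and 0.0613 in dCBP-30. MTHFD2, the enzyme before it, was at 21.2, 17.1 and 22.9 in DMSO and 5.39, 9.05 and 3.31 in dCBP-30 (log2 fold change -1.78, adjusted p = 1.4e-08). The first enzyme of serine synthesis, PHGDH, was at -0.01 (adjusted p = 0.99) and SHMT2, which splits serine into glycine and a one-carbon unit, at -0.60 (adjusted p = 0.13).

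Nutrient transporters were lower in 9 of 13 tested, with a median of -1.67 and 0 higher. Part of this list was not level at 2 h, when 4 of the 13 (30.8%) were called lower and 1 higher. Of all genes tested, 7.14% were lower and 1.66% higher at 2 h. Among the 9 lower at 6 h, 3 had been called lower at 2 h. SLC7A5, the leucine transporter that exchanges with glutamine, was at 4.81, 4.29 and 3.73 RPM of T>C reads in DMSO and 0.838, 0.999 and 0.368 in dCBP-30. Its log2 fold change was -2.52 ± 0.43 (SE, adjusted p = 3.2e-06). SLC3A2, the heavy chain that carries SLC7A5 to the membrane, was at -1.26 (adjusted p = 1.9e-09). SLC1A5, the glutamine carrier, had 40.8, 35.5 and 33.3 in DMSO and 9.64, 13.3 and 13.8 in dCBP-30 at 6 h (log2 fold change -1.58, adjusted p = 7.2e-09). At 2 h its change was 0.77 (adjusted p = 0.0048), in the other direction. TFRC, the transferrin receptor for iron uptake, was at -1.80 (adjusted p = 1.2e-09) and the neutral amino acid transporter SLC38A5 at -3.16 (adjusted p = 3.8e-08). SLC2A1, the glucose transporter, was the highest of the list at 6 h, at -0.75 (adjusted p = 0.051), after a call of 1.15 at 2 h.

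Chaperonins and mitochondrial import genes were lower in 19 of 27 tested, and all 27 lay below 0 (median -1.27), 25 of them without TMM. HSPD1, the mitochondrial chaperonin, was at 77.3, 81.7 and 86.3 RPM of T>C reads in DMSO and 22.0, 21.2 and 19.4 in dCBP-30. The log2 fold change was -1.97 ± 0.16 (SE, adjusted p = 3.1e-16) at 6 h and 0.02 at 2 h. CCT2, a subunit of the cytosolic chaperonin, was at -1.31 (adjusted p = 0.00012) and PHB1, a mitochondrial inner membrane scaffold, at -1.41 (adjusted p = 4.7e-05). TIMM9, a small import chaperone, was lowest at -2.64 (adjusted p = 0.015) on few reads, and lost its call without dCBP-30 replicate 2 or DMSO replicate 3 (-2.05 and -2.46). The 3′ UTRs of TIMM9, MTHFD2 and SHMT2 each overlap a gene on the opposite strand. Mitochondrial ribosomal protein genes were the least affected of the 12 lists by median (-0.57), with 19 of 73 called lower and 0 higher. MRPL36 had 10.1, 9.45 and 11.3 in DMSO and 1.26, 3.44 and 1.35 in dCBP-30 (log2 fold change -2.34, adjusted p = 2.1e-07).

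Across the 10 growth lists with 0 members called higher by edgeR at 6 h, 1 member, MRPL43, was higher at an unadjusted p under 0.05.

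Lists outside growth and biosynthesis differed among themselves. Of 34 DNA replication genes, 0 were called lower and 0 higher by edgeR's quasi-likelihood test, and their median was -0.05, or 0.25 without TMM. At an unadjusted p under 0.05, 5 were lower and 0 higher, and DESeq2 with size factors from total reads called 1 lower. Of 25 mitosis genes 2 were called lower (median -0.07, or 0.25 without TMM), of 30 proteasome genes 2 (median -0.34, or -0.02 without TMM) and of 50 respiratory chain genes 7 (median -0.42, or -0.10 without TMM). Genes of endoplasmic reticulum secretion and the unfolded protein response were called lower in 15 of 36 (41.7%, median -0.80), a larger share than in 6 of the 12 growth lists, among them translation factors (39.1%), polyamines (28.6%) and mitochondrial ribosomal proteins (26.0%). At 2 h, 8 of these 36 had been called lower. Splicing factors were lower in 13 of 33 (median -0.86), which is beyond the 17.1% of all genes, and so were glycolysis genes, with 7 of 16 (median -0.89). HK2, the hexokinase, was at -2.83 (adjusted p = 6.8e-07) and LDHA, the lactate dehydrogenase, at -2.31 (adjusted p = 6.1e-14). The sterol and fatty acid list had 6 of 23 lower. FASN, the fatty acid synthase, was called higher at 2 h (1.74) and lower at 6 h (-1.11, adjusted p = 0.0001), a call that was lost without dCBP-30 replicate 1 (-0.998) or DMSO replicate 1 (-0.95). All 16 myeloma identity genes were lower at 6 h, and 15 of the 16 had been lower at 2 h. IRF4, a master factor of the myeloma cell, was at -3.50 at 2 h and -4.32 at 6 h. Of 27 mTORC1 pathway genes, 5 were lower and 3 higher.

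Total RNA of the growth genes moved less than new RNA at 6 h. In total reads 47 of 423 members tested (11.1%) were called lower and 1 higher, where 8.67% of all 12267 genes were lower and 7.47% higher. The share of members lower was thus near the background, while their median was -0.49 and that of all genes 0.02. Without TMM, 26 members were called lower, with a median of -0.17 against 0.35 for all genes. The member called higher was CTPS2, a CTP synthase, and it had too few T>C reads to test. Of the 211 members lower in T>C reads, 46 were also called lower in total reads. Of these 46, 23 were ribosome biogenesis genes and 0 were cytosolic ribosomal protein genes, whose 77 tested members had a median of -0.54 with all 77 below 0. Without TMM this median was -0.23, with 71 of the 77 below 0, and without dCBP-30 replicate 3 it was -0.37. As a share of all reads in a library, these genes overlapped between the groups, at 8.42%, 7.89% and 5.84% in dCBP-30 and 7.60%, 8.90% and 8.80% in DMSO (two-sided exact permutation p = 0.3). Replicate 3 of dCBP-30 was the low one, and over all genes its total reads stood further from replicates 1 and 2 (chi-square per degree of freedom 47.6 and 34.9) than these from each other (9.95). In DMSO, replicate 1 was the low one and stood apart likewise (25.1 and 22.4, against 8.71 between replicates 2 and 3). Deviations of dCBP-30 replicate 3 and DMSO replicate 1 from their group means in total reads correlated at 0.415. By edgeR 66 of the 77 were lower at an unadjusted p under 0.05 and 48 at an adjusted one with no minimum fold, and DESeq2 also called 0 past 2-fold. DNA replication genes had a median of 0.41 in total reads, or 0.73 without TMM.

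NOP16 went furthest, with 131 ± 16.8 RPM of total reads (SD, n = 3) in DMSO and 18.2 ± 0.85 in dCBP-30 (log2 fold change -2.85, adjusted p = 3.3e-12). ODC1 went from 965 ± 50.7 to 454 ± 53.1 (SD, n = 3), a log2 fold change of -1.09 (adjusted p = 2.9e-07). SRM, with a like change in new RNA, was at 855 ± 71.4 and 765 ± 159 (log2 fold change -0.16, adjusted p = 0.42). The share of reads with a conversion in DMSO at 6 h was 12.02% for NOP16, 7.89% for ODC1 and 2.32% for SRM. RPL3 total reads were 985 ± 16.0 and 722 ± 63.0 (log2 fold change -0.45, adjusted p = 0.00082).

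**Figure D3:**
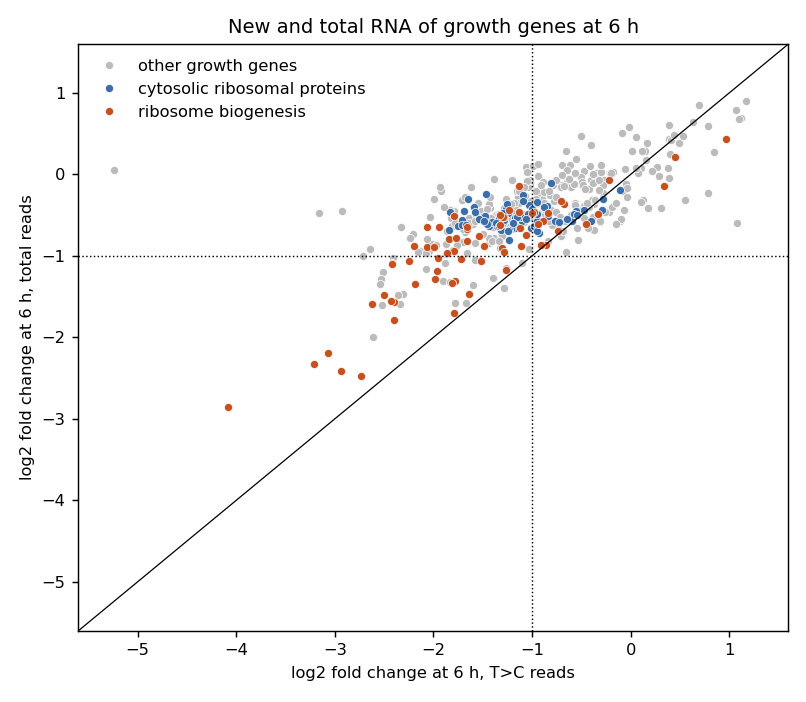
Log2 fold change at 6 h in T>C reads (x axis) and total reads (y axis) for the growth members, with ribosome biogenesis genes in orange, cytosolic ribosomal protein genes in blue and the others in grey. The solid line marks equal change and dotted lines mark a 2-fold fall. Most points lie above the solid line, and no blue point is called in total reads.

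Reads without a conversion make up most of the total reads, so values like those of total reads were built in. Of 422 members tested there, 41 (9.72%) were called lower, near the 7.76% of all genes. To place this against turnover, each gene was given its T>C share in the 2 h DMSO samples. These samples are outside the 2 groups compared at 6 h. They did enter the low-count filter and the estimate of spread behind the 6 h calls. No background was taken from the share, and samples without 4sU gave 0.794% and 0.809% over all genes. Low shares, from 1.05% up in the lowest group below, are thus the least sure measure of turnover. The members called lower in T>C reads were put in 3 groups by that share. In the lowest, with a median share of 2.31%, 0 of 71 were called lower in reads without a conversion, and the median log2 fold change there was -0.53. In the middle group (median share 6.01%) 10 of 70 were called and the median was -0.57. In the highest (median share 13.4%) 30 of 70 were called, with a median of -0.88. Median changes in T>C reads themselves were -1.38, -1.49 and -1.79 in the 3 groups. Across these 211 genes Spearman's rho of the share with the change in reads without a conversion was -0.48 and Pearson's r, with the share on a log2 scale, -0.47. Over all tested growth members rho was -0.24. The same order held over all genes: for 1718 genes called lower in T>C reads, growth members included, rho was -0.34, and in groups made the same way 121 of 573, 263 of 573 and 323 of 572 were called lower in reads without a conversion. Median shares in these groups were 3.82%, 9.51% and 23.3%, higher than in the groups of growth members. The points share their libraries and genes are not independent replicates.

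**Figure D4:**
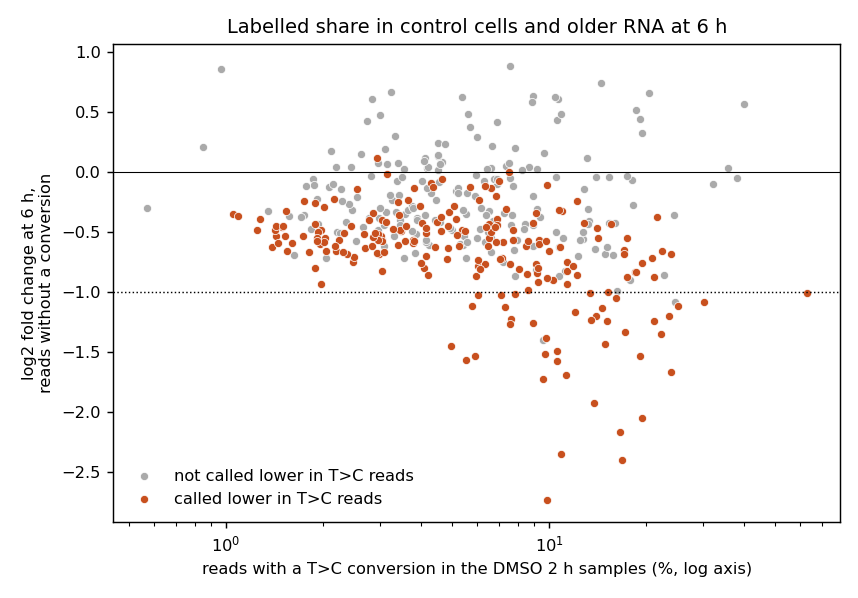
Log2 fold change at 6 h in reads without a conversion (y axis) against the percent of reads with a T>C conversion in the 2 h DMSO samples (x axis, log scale) for the growth members tested. Orange points were called lower in T>C reads at 6 h and grey points were not. Orange points with a higher share lie lower, with rho of -0.48 over 211 genes.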

How the data were processed

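The deposited tables give, per the file headers, whole-number counts of reads and of reads with T>C conversions for each transcript's 3′ UTR (QuantSeq 3′ libraries, single-end). Per the labels and the study's methods, the authors trimmed reads with Trim Galore and used Slamdunk with hg38 UTRs. A Drosophila spike-in was added; spike-in reads were not used here, so a global change in RNA output is not measured. Transcripts were named through GENCODE (91.4% of 97466 rows matched), and the transcript with most reads stood for each of 19593 genes. The T>C counts, total counts and their difference were each fitted over 18 labelled libraries with edgeR 4.0.16 (quasi-likelihood test, R 4.3.3), on library totals scaled by TMM, with filterByExpr at a minimum count of 10. P-values were adjusted by Benjamini-Hochberg. Alternatives included DESeq2 1.42.0. Scripts were tested on simulated data. Shares were compared by exact permutation tests (scipy 1.17.1). Members and lists were chosen with earlier results of these data known. Named genes were a set of 55 key genes plus the lowest and highest member of each growth list with at least 20 T>C reads on average in the higher group; others were named after their values were seen. No value column lacked a sample.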

Additional observations from a re-analysis of the deposited data

Results flagged for a closer look

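Named genes were taken up here where the 6 h change in T>C reads differed from the 2 h change by edgeR's interaction test (adjusted p under 0.05). Values are differences of log2 fold changes, 6 h minus 2 h.

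For ribosome production the difference was -3.54 for NOP16, -2.82 for RRS1, -2.23 for NOLC1, -1.80 for NCL, -1.74 for NOP56, -1.20 for FBL and -1.19 for NPM1. Among polymerase genes it was -2.48 for POLR1A, -1.98 for UBTF and -1.81 for POLR1B. Ribosomal protein genes RPL3, RPS21 and RPS6 were at -2.08, -1.78 and -1.50, and MRPL36 of the mitochondrial ribosome was at -1.54. In translation, EIF4A1 was at -2.71, AIMP2 at -2.41, ABCE1 at -1.85 and EIF5A at -1.19.

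In nucleotide synthesis PPAT was at -2.68, UCK2 at -2.05, CAD at -1.79, IMPDH2 at -1.66 and PAICS at -1.25. In the polyamine path ODC1 was at -2.24, SRM at -2.21 and AMD1 at -0.86. The one-carbon genes MTHFD1L and MTHFD2 were at -3.65 and -1.83. Transporters were at -2.39 (SLC7A5), -2.35 (SLC1A5), -2.06 (SLC38A5), -1.92 (TFRC), -1.90 (SLC2A1) and -1.08 (SLC3A2). HSPD1 was at -1.99, PHB1 at -1.42 and CCT2 at -1.29.

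Outside the growth lists, HK2 was at -3.13, FASN at -2.85 and LDHA at -1.98. Among identity genes, which were low at 2 h already, CCND2 was at -2.10, TCF3 at -1.18, PIM2 at -1.05 and IRF4 at -0.81. FASN and SLC2A1 were called higher at 2 h, and FASN was called lower at 6 h.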

How the results depend on the processing

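The scaling of the libraries moved the counts most. With T>C reads scaled by their own sum, 517 genes were higher at 6 h, 135 growth members were lower, and the difference between 6 h and 2 h was called lower for 323 genes (83 growth members) and higher for 99. Without TMM these were 525, 135 and 412 (107 growth members), 1814 genes were higher in reads without a conversion and 1765 in total reads, 26 growth members were lower in total reads, and their median there was -0.17. With DESeq2 and size factors from T>C reads, 710 genes were higher, 130 growth members lower with a median of -0.69, and the difference was lower for 347 genes (80 members) and higher for 164. At an adjusted p under 0.1, 363 genes were higher. With no minimum fold change, 2332 genes were lower and 2258 higher in reads without a conversion, 2636 and 2306 in total reads, and 235 growth members were lower in total reads. With reads summed over transcripts the difference was lower for 383 genes (102 members) and higher for 36. None of these alternatives turned the direction of a called result, and the cause of each shift in count was not tested. Over all alternatives, named genes lost their call in 41 cases and gained one in 10, with 1275 unchanged.

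Leaving out single 6 h samples gave 196 to 212 growth members lower in T>C reads. With the replicate block 211 members were lower, 153 in the difference and 48 in total reads. The shared numbers do not pair the samples: deviations of same-numbered samples in total reads correlated at -0.365, 0.110 and -0.266, and no call count moved by over 1.5 times under the block. The 3 samples a group limit precision for genes with few T>C reads, such as MTHFD1L and TIMM9.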

Other observations

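Genes outside every list used here also had new RNA that was not called lower at 2 h and was called lower at 6 h and in the difference, and those named next were chosen after their values were seen. SETBP1, a nuclear protein recurrently altered in leukaemia, had log2 fold changes of 0.16 at 2 h and -4.80 at 6 h in T>C reads and -3.64 in total reads. BHLHA15, a transcription factor of secretory cells, was at -0.16 and -4.46, and its 3′ UTR overlaps TECPR1 on the opposite strand. METTL1, which methylates transfer RNA, was at 0.17 and -5.23, and DUSP2, a phosphatase of MAP kinases, at 0.48 and -3.75. TCOF1, a nucleolar partner of polymerase I, was not level at 2 h but called higher, at 1.66 (adjusted p = 0.01), and lower at 6 h, at -2.13, with -0.24 in total reads. The other direction was counted over all genes tested, in a list or not. There 20 genes were higher at 6 h and in the difference but not at 2 h. TCAF1 was among them, at 0.62 and 2.08.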
